A study of Mus musculus with 9 samples.

Results

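Laminin chains and integrin subunits were compared between control embryonic stem cells (ESCs) and 2 *Rbbp4* mutant ESC lines. Members were chosen with earlier results of these data known. The rule took every symbol of a laminin alpha, beta or gamma chain or of an integrin alpha or beta subunit. This gave 37 genes of 25239 in the count tables, of which 11 encode laminin chains and 26 encode integrin subunits. RNA-seq was performed on 9 libraries, 3 from each of 3 mouse ESC lines. The control was the E14 line (strain label 12910la) with unmodified *Rbbp4*. *Rbbp4* Ins/Ins ESCs carry a small in-frame insertion in both alleles, and *Rbbp4* Ins/Del ESCs carry that insertion in one allele and a small in-frame deletion in the other. Both mutants were made from E14 with CRISPR-Cas9, and each is a single clone, so a difference between clones and an effect of its *Rbbp4* alleles cannot be told apart. All 3 lines were grown in GMEM with serum and LIF, the cytokine that holds mouse ESCs undifferentiated, and the labels list no feeder cells. The study asked how disruption of RBBP4, a histone-binding subunit of Polycomb repressive complex 2 and of histone deacetylase complexes, alters gene expression.

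Laminins are trimers of one alpha, one beta and one gamma chain, and they are named by the numbers of their chains. The beta and gamma chains join first inside the cell, the alpha chain is added, and the trimer is secreted into the basement membrane, the sheet of matrix beneath epithelia and around early embryonic tissues. Laminins with the alpha5 or alpha1 chain are substrates on which ESCs attach. Integrins are the main laminin receptors. Each is a pair of one alpha and one beta subunit at the cell surface, and an alpha subunit leaves the endoplasmic reticulum only with its beta partner. The alpha3, alpha6 and alpha7 subunits bind laminin, alpha5 and alphav bind the RGD motif of fibronectin or vitronectin, alpha1 and alpha2 bind collagens and laminin, alpha10 and alpha11 bind collagens, and the subunits that pair with beta2 or beta7 are best known from leukocytes.

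Total counts ranged from 15838064 to 21366868 per library. *Rbbp4* itself had a mean of 10005 ± 99.1 normalized counts in control, 5604 ± 153 in Ins/Ins and 10359 ± 238 in Ins/Del (SD, n = 3), where a normalized count is a read count scaled to a common effective library size. Counts per gene do not show the insertion or the deletion, so these values do not check the genotype labels. The study found less RBBP4 protein in both mutants by Western blot. The summed normalized counts of 8 ESC markers were 60610.5 to 64081.6 in control, 80269.1 to 80928 in Ins/Ins and 81040.4 to 83599.3 in Ins/Del. All 8 were tested, and 6 rose and 2 fell in Ins/Ins, while 5 rose and 1 fell in Ins/Del. These are bulk libraries, in which fewer cells of a type and less RNA per cell cannot be told apart. The labels do not say whether the 3 libraries of a line came from separate cultures, so p-values measure the spread between these libraries, which may be technical.

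By mean normalized counts in control, the most abundant members were the parts of 2 kinds of complex. These were laminin-511 with laminin-111, and β1 integrins with α6, α3 or α5. Per kilobase of exon, *Itgb5* stood above *Lama1* in control, and in both mutants *Itgav* had more normalized counts than *Itga3*. In both mutants every laminin beta chain fell while the main gamma chain rose, *Itgb1* and *Itga3* fell by more than 2-fold, and *Itga5* rose. *Itgb7* rose over 4-fold in each mutant. Of the 37 members, 32 held enough reads to be among the 14125 genes tested. The other 5 were *Itga2*, *Itgad*, *Itgax*, *Itgb6* and *Lamc3*. A gene was called when its adjusted p in edgeR's quasi-likelihood test was at most 0.01.

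In Ins/Ins, 8 members were called higher and 15 lower than in control, and 9 were not called. Called in either direction were 71.9% of the members tested and 58.4% of all genes tested. Of all genes tested, 29% were higher and 29.4% lower. In Ins/Del, 11 members were called higher and 13 lower, and 8 were not called. Called in either direction were 75% of the members tested and 62.5% of all genes tested, with 30.6% of all genes higher and 31.9% lower. Both mutants were compared with the same control libraries, and the members were chosen with earlier results of these data known. The 8 members higher in both were *Itga5*, *Itga7*, *Itga10*, *Itgal*, *Itgb4*, *Itgb7*, *Lama3* and *Lamc1*, and 25.6% of all genes tested were higher in both. The 13 lower in both were *Itga1*, *Itga3*, *Itga8*, *Itga11*, *Itgav*, *Itgb1*, *Itgb3*, *Itgb5*, *Itgb8*, *Lama4*, *Lamb1*, *Lamb2* and *Lamb3*, and 26.7% of all genes tested were lower in both. With a change over 2-fold in both mutants, 5 members were higher and 6 were lower, against 6.58% and 8.1% of all genes tested.

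**Figure D1:**
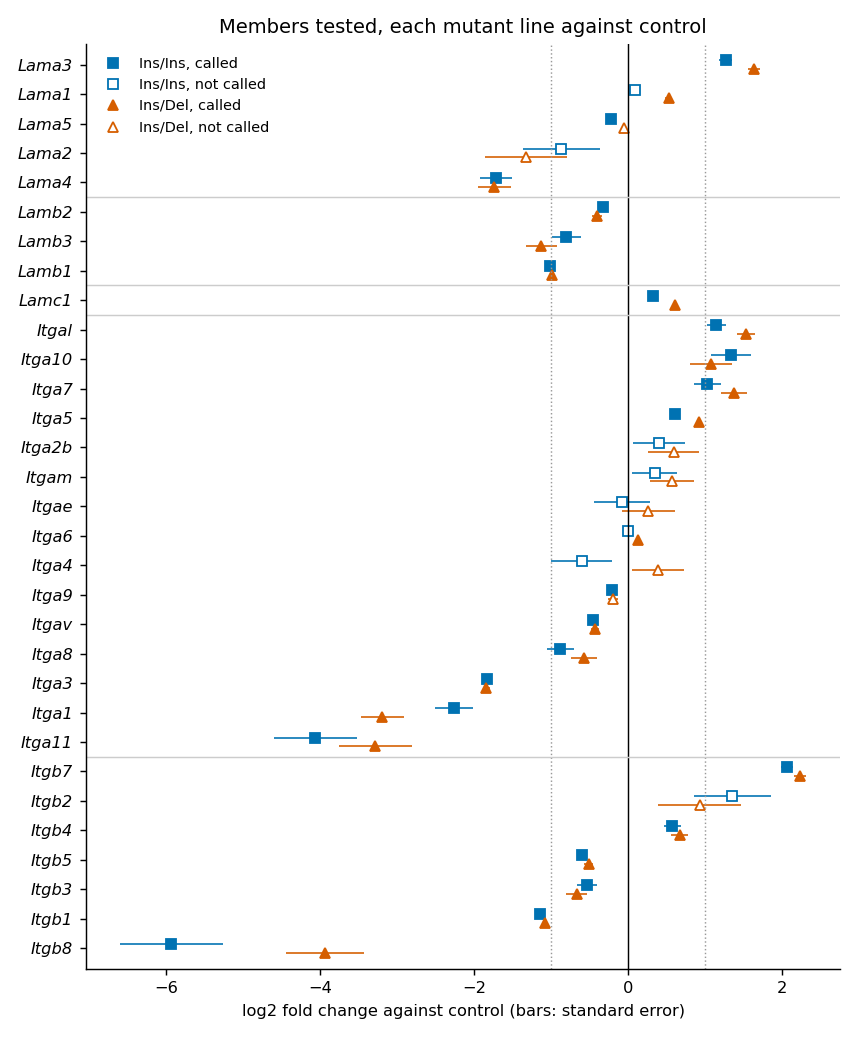
Log2 fold change of members tested in each mutant line against control, grouped by class with laminin alpha chains at the top and integrin beta subunits at the bottom. Squares are Ins/Ins and triangles Ins/Del, filled symbols passed the test, bars are standard errors and dotted lines mark a 2-fold change. Every laminin beta chain lies to the left of 0 and *Itgb7* lies furthest to the right, and the values of *Itgb8* and *Itga11* rest on very few mutant reads.

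The promoters of 4 members are shown here because the results turn on them: *Itgb1*, *Itga3* and *Lamb1*, which fell in both mutants and are main chains of their classes, and *Itgb7*, which rose. The bases are those before the RefSeq start on GRCm38.p6, printed 5′ to 3′ along the gene's strand, without bases that GENCODE places in an exon. Capitals mark the letters GGGCGG, the core of SP and KLF sites, and GGAATG, the core of TEAD sites, on either strand.
Itgb1: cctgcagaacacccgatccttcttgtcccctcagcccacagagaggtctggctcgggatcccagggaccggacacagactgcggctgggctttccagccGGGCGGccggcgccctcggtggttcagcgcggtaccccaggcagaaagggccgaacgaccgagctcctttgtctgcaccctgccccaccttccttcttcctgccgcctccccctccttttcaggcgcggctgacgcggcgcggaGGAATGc
Itga3: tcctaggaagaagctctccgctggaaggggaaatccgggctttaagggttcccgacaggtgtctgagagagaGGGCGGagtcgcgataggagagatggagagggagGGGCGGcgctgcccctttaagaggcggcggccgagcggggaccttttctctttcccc
Lamb1: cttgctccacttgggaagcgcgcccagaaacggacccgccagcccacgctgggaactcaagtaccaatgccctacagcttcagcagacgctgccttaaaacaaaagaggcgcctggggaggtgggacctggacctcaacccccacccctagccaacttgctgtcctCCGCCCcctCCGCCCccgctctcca
Itgb7: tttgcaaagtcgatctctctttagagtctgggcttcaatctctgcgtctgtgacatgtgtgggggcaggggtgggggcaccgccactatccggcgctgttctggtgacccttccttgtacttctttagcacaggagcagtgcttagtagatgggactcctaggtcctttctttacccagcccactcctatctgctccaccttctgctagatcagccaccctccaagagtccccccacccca
The *Itgb1* bases lie at chr8:128685404-128685653 on the plus strand and hold 21 CpG dinucleotides in 250 bases. The *Itga3* bases lie at chr11:95076802-95076964 on the minus strand and hold 12 in 163 bases. The *Lamb1* bases lie at chr12:31265043-31265233 on the plus strand and hold 10 in 191 bases. The *Itgb7* bases lie at chr15:102231945-102232185 on the minus strand and hold 5 in 241 bases, and neither marked motif is among them.

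A RefSeq promoter was at hand for 23 of the 37 members. In the 250 bases before the start, GGGCGG was found for 8 of the 23, namely *Itga3*, *Itga4*, *Itga5*, *Itgam*, *Itgb1*, *Itgb5*, *Lama5* and *Lamb1*, and for 32.7% of 32851 mouse promoters. GGAATG was found for 3 members, *Itga10*, *Itgb1* and *Lamb3*, and for 12.6% of all promoters. The AP-1 letters TGANTCA and the GATA letters AGATAA were each found for *Itgax* alone, against 6.75% and 9.99% of all promoters. The octamer ATGCAAAT, the site of POU5F1, was found for 0 members and for 1.6% of all promoters. Members that fell (*Itga3*, *Itgb1*, *Itgb5*, *Lamb1*) and one that rose (*Itga5*) both held GGGCGG. A match is only a run of letters in this window.

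Among the laminin alpha chains, *Lama5* was the main one in every library, and its lead narrowed. *Lama5* (chr2:180176373-180225859, GENCODE M21 on GRCm38, as for all gene positions given) encodes the alpha chain of laminin-511, a laminin on which pluripotent cells attach. It had normalized counts of 8591, 9013 and 8799.9 in control, 7926, 7151 and 7512 in Ins/Ins, and 8966, 8023 and 8427 in Ins/Del. All Ins/Ins libraries lay below all control libraries, while the Ins/Del libraries overlapped with control. The log2 fold change was -0.22 ± 0.034 (SE, edgeR adjusted p = 4.3e-07) in Ins/Ins and -0.06 ± 0.034 (edgeR adjusted p = 0.148) in Ins/Del.

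*Lama1* (chr17:67697259-67822647) encodes the alpha chain of laminin-111, the laminin of the earliest embryonic basement membranes. Its normalized counts were 1382, 1460.2 and 1353 in control, 1551, 1426 and 1476 in Ins/Ins, and 2007, 1995 and 2036 in Ins/Del. Only in Ins/Del did the libraries stand clear of control, with a log2 fold change of 0.53 ± 0.041 (edgeR adjusted p = 1.7e-14), while that of Ins/Ins was 0.09 ± 0.042 (edgeR adjusted p = 0.058). The difference between the mutants was itself called, at 0.44 ± 0.040 in log2 (edgeR adjusted p = 1.5e-10). Primitive and parietal endoderm, the embryonic tissue best known for laminin-111, was followed by 12 marker genes. Their summed normalized counts were 428 to 459 in control, 337 to 431 in Ins/Ins and 477 to 520.3 in Ins/Del, and of the 8 markers tested 3 rose and 2 fell in Ins/Ins and 6 rose and 2 fell in Ins/Del. *Ttr*, *Afp* and *Apoa1* were at 3 reads or fewer in every control and every Ins/Del library. The part of such cells in the *Lama1* difference was not tested.

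*Lama3*, the alpha chain of laminin-332 of skin and other epithelia, had normalized counts of 158, 138 and 150.5 in control, 339, 362 and 382 in Ins/Ins, and 463, 477 and 450.1 in Ins/Del. The 3 lines did not overlap. *Lama3* was 2.42-fold higher in Ins/Ins (log2 1.27 ± 0.086, edgeR adjusted p = 5.6e-16) and 3.11-fold higher in Ins/Del (log2 1.63 ± 0.083, edgeR adjusted p = 4.9e-20), and it was also higher in Ins/Del than in Ins/Ins (log2 0.37 ± 0.072, edgeR adjusted p = 0.00023).

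*Lama4*, an alpha chain of endothelial and muscle basement membranes, moved the other way, with normalized counts of 71, 61.8 and 71.5 in control, 22.2, 19.2 and 20.1 in Ins/Ins, and 20.4, 17.1 and 24.3 in Ins/Del. Both mutants lay far below control and overlapped with each other. The log2 fold changes were -1.72 ± 0.21 (edgeR adjusted p = 4e-09) and -1.74 ± 0.21 (edgeR adjusted p = 3.1e-09). *Lama2*, the chain of muscle laminin-211, had 5 to 23 normalized counts per control library and did not pass the test in either mutant.

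Levels were also taken per kilobase of exon, as RPKM (reads per kilobase of exon, scaled to the effective library size), so that genes could be compared. *Lama5* made up 82.4% ± 0.29 of the summed alpha chain level in control, 77.8% ± 0.41 in Ins/Ins and 74.6% ± 1.07 in Ins/Del (SD, n = 3). The share of *Lama1* was 15.4% ± 0.38, 18.0% ± 0.12 and 20.9% ± 0.83, and that of *Lama3* was 1.48% ± 0.13, 3.96% ± 0.36 and 4.33% ± 0.27. For each of these shares the mutant libraries did not overlap with control, and the two-sided exact permutation p was 0.1, the smallest that 3 against 3 libraries can give.

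**Figure D2:**
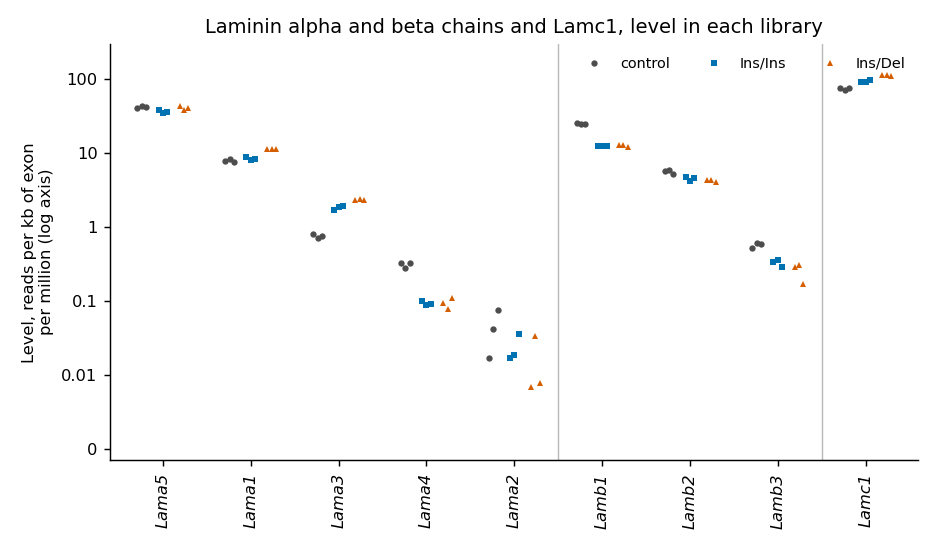
Level of the laminin alpha chains, the beta chains and *Lamc1* in each library, in RPKM on a log axis, from left to right. Each point is a library, with circles for control, squares for Ins/Ins and triangles for Ins/Del. All points of *Lamb1* and *Lamb2* in the mutants lie below control, and those of *Lamc1* and *Lama3* lie above it.

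The beta chains fell without exception in the 2 mutants. *Lamb1* (chr12:31265234-31329644), whose promoter is printed above, is the beta chain of laminin-111, laminin-411 and laminin-511. Its normalized counts were 4570.4, 4543 and 4484 in control, 2262, 2238 and 2251 in Ins/Ins, and 2332, 2321 and 2196 in Ins/Del. The counts of each mutant were about equal to each other and stood 50.4% and 49.6% below control. The log2 fold changes were -1.01 ± 0.033 in Ins/Ins (edgeR adjusted p = 2.3e-26) and -0.99 ± 0.033 in Ins/Del (edgeR adjusted p = 3.7e-26).

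*Lamb2*, the beta chain of laminin-521 and of synaptic and kidney laminins, fell less. It had normalized counts of 641, 652 and 573 in control, 522, 462 and 505 in Ins/Ins, and 480.5, 477 and 457 in Ins/Del, a decrease of 20.2% and 24.2% (edgeR adjusted p = 2.6e-05 and 8.1e-07). *Lamb3*, the beta chain of laminin-332, had 62.4, 74.4 and 70.4 in control, 40.2, 42.9 and 34.9 in Ins/Ins, and 34.8, 37 and 20.8 in Ins/Del. Its log2 fold changes were -0.80 ± 0.19 (edgeR adjusted p = 0.00033) and -1.13 ± 0.2 (edgeR adjusted p = 4.9e-06). Between the mutants, edgeR called 0 of the 3 beta chains, with 0 at an unadjusted p under 0.05 and 0 by DESeq2.

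The main gamma chain rose. *Lamc1* (chr1:153218922-153332786), the gamma chain of laminin-111, laminin-411, laminin-511 and laminin-521, was the laminin gene with the most reads. Its normalized counts were 11441, 10949 and 11367 in control, 13725, 14029 and 14611 in Ins/Ins, and 17482, 17272 and 16815 in Ins/Del. The 3 lines were in this order without overlap. *Lamc1* rose by 25.5% in Ins/Ins (log2 0.33 ± 0.028, edgeR adjusted p = 4.4e-13) and by 52.8% in Ins/Del (log2 0.61 ± 0.028, edgeR adjusted p = 1.7e-21). *Lamc3* held 2 to 10 reads per library and was not tested.

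Per kilobase of exon, the laminin chains therefore changed unequally. The summed level of the beta chains was 31.2 ± 0.61 RPKM in control, 17.2 ± 0.33 in Ins/Ins and 17.1 ± 0.6 in Ins/Del. The alpha chain sum was 51.4 ± 1.19, 46.6 ± 2.16 and 54.7 ± 2.27. The level of *Lamc1* was 74.6 ± 1.76, 93.6 ± 2.98 and 114 ± 2.26. In each line the beta chain sum was below both the alpha chain sum and *Lamc1*. The length that is assumed for a gene moves these sums, and with the longest transcript in place of all exons the control sums were 51.9 for alpha and 49.8 for beta chains, and the Ins/Del sums 55 and 26.6.

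**Figure D3:**
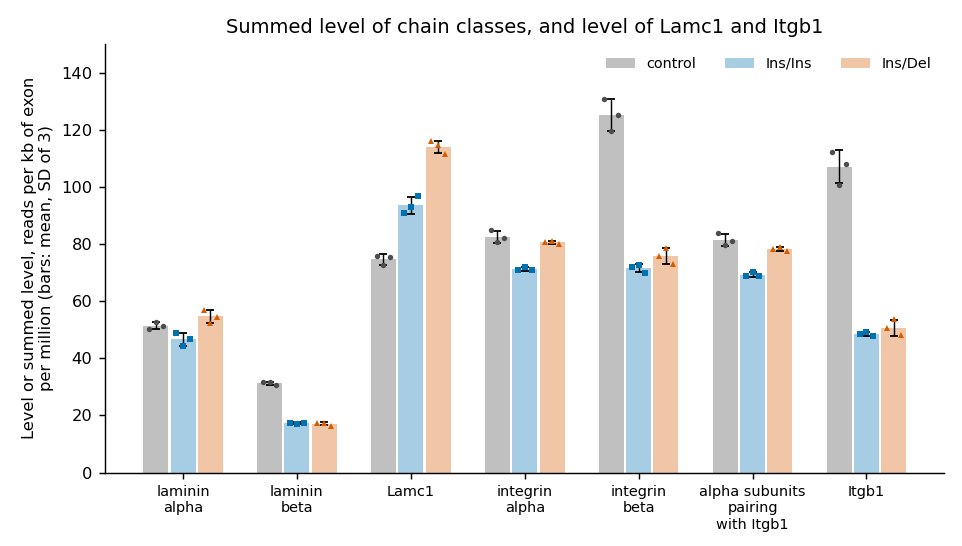
Summed level of the laminin alpha and beta chains and of each integrin class, the level of *Lamc1*, the summed level of the alpha subunits that can pair with *Itgb1*, and the level of *Itgb1*, in RPKM on an axis that starts at 0. Bars are means of 3 libraries with their SD and points are libraries. The laminin beta sum falls from 31.2 in control to about 17 in both mutants while *Lamc1* rises from 74.6 to 114 in Ins/Del. With all exons as the length, as drawn, *Itgb1* is above the sum of its partners in control and below it in both mutants. With the longest transcript as the length, *Itgb1* is below that sum in control too.

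Among the receptors, *Itgb1* (chr8:128685654-128733200) encodes the beta subunit shared by most matrix-binding integrins, including α3β1, α6β1 and α7β1 that bind laminin, and fell by more than 2-fold in both mutants. Its normalized counts were 8354, 7501 and 8044 in control, 3619, 3653 and 3554 in Ins/Ins, and 3761, 3994 and 3572 in Ins/Del. Every control library lay far above every mutant library, and the mutants overlapped with each other. The log2 fold changes were -1.14 ± 0.036 in Ins/Ins (edgeR adjusted p = 9.2e-27) and -1.08 ± 0.036 in Ins/Del (edgeR adjusted p = 4.7e-26), and the difference between the mutants was 0.07 ± 0.037 (edgeR adjusted p = 0.222).

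The laminin-binding alpha subunits split. *Itga3* (chr11:95044474-95076801), which pairs with β1 to bind laminin-511 and laminin-332, had normalized counts of 2711, 2614 and 2715 in control, 757, 798 and 711 in Ins/Ins, and 724, 775 and 746 in Ins/Del. It was 3.55-fold lower in Ins/Ins (log2 -1.83 ± 0.044, edgeR adjusted p = 1.5e-30) and 3.58-fold lower in Ins/Del (log2 -1.84 ± 0.044, edgeR adjusted p = 9.2e-31). *Itga3* fell further than any other member with over 100 normalized counts in control.

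*Itga6* (chr2:71745616-71858416), the laminin-binding partner of both β1 and β4 and a surface marker of stem cells, was near its control level, with normalized counts of 4788, 4330.4 and 4612 in control, 4421, 4683 and 4632 in Ins/Ins, and 5052, 5096 and 4902 in Ins/Del. Ins/Ins overlapped with control (edgeR adjusted p = 0.971), and Ins/Del was 9.62% higher (log2 0.13 ± 0.033, edgeR adjusted p = 0.00064).

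*Itga7*, a laminin receptor subunit of muscle, was low and rose, with normalized counts of 49.6, 74.4 and 34.6 in control, 118, 92.5 and 111 in Ins/Ins, and 140.1, 117 and 159 in Ins/Del. The log2 fold changes were 1.03 ± 0.18 (edgeR adjusted p = 3.3e-06) and 1.38 ± 0.17 (edgeR adjusted p = 3.7e-09). *Itgb4*, which pairs only with α6 in hemidesmosomes, had 155, 162 and 136 in control, 248, 185 and 239 in Ins/Ins, and 213, 268 and 241 in Ins/Del. It rose by 48.2% and 59% (edgeR adjusted p = 2.1e-05 and 1.2e-06), without overlap with control.

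The summed level of the laminin-binding alpha subunits (*Itga1*, *Itga2*, *Itga3*, *Itga6* and *Itga7*) was 54.1 in control, 35.9 in Ins/Ins and 38.6 in Ins/Del. It decreased by 33.7% in Ins/Ins and by 28.6% in Ins/Del. With the longest transcript of each gene as its length, the sums were 89.5, 68.3 and 74.2, and the decreases 23.7% and 17.1%.

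The fibronectin receptor subunit *Itga5* (chr15:103344286-103366763) rose. Its normalized counts were 1464, 1499 and 1415 in control, 2276, 2216 and 2212 in Ins/Ins, and 2757, 2773 and 2787 in Ins/Del. The 3 lines did not overlap, and the increase was 53.1% in Ins/Ins (log2 0.62 ± 0.037, edgeR adjusted p = 1e-17) and 90% in Ins/Del (log2 0.93 ± 0.036, edgeR adjusted p = 8.9e-24). *Itga3* and *Itga5* changed places: per kilobase of exon, *Itga3* made up 31.2% ± 0.52 of the summed alpha subunit level in control and 10.2% ± 0.5 and 8.91% ± 0.29 in Ins/Ins and Ins/Del, while *Itga5* made up 19.7% ± 0.87, 34.9% ± 0.78 and 38.2% ± 0.4. The share of *Itga6* was 33.7% ± 0.91, 39.1% ± 0.97 and 37.8% ± 0.54. Each of these shares had an exact permutation p of 0.1 in each mutant.

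**Figure D4:**
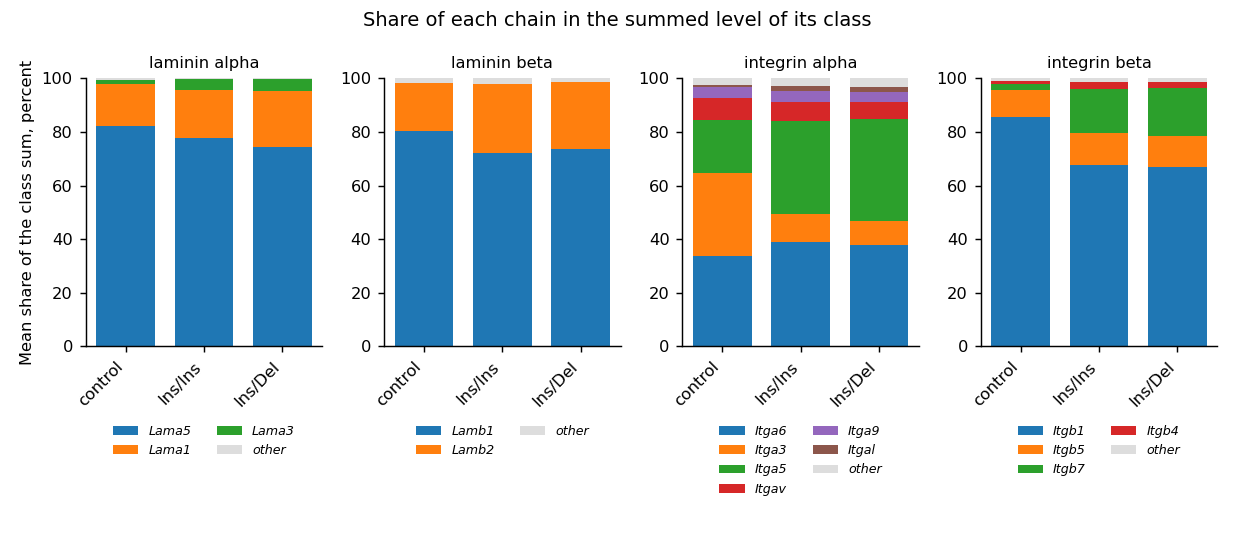
Mean share of each chain in the summed level of its class, in percent, for the 3 lines, with laminin alpha, laminin beta, integrin alpha and integrin beta from left to right. Chains with under 2% of their class in every line are joined as other. *Itga3* shrinks from 31.2% to 8.91% and *Itga5* grows from 19.7% to 38.2% of the alpha subunits, and *Itgb7* grows from 2.28% to 17.6% of the beta subunits.

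*Itgav* and its beta partners *Itgb5* and *Itgb3* fell by less than 2-fold in each mutant. *Itgav*, the alphav subunit, had normalized counts of 1415, 1281 and 1337 in control, 957, 1042 and 963 in Ins/Ins, and 1013, 1011 and 972 in Ins/Del, a decrease of 26.6% and 25.7% (edgeR adjusted p = 1e-10 and 2.7e-10). *Itgb5*, one of its beta partners, had 851, 841 and 763 in control, 524, 586 and 522 in Ins/Ins, and 573, 572 and 584 in Ins/Del (edgeR adjusted p = 1.7e-11 and 6.4e-10). *Itgb3*, another partner and also a platelet subunit, had means of 123, 84.9 and 76.7 in control, Ins/Ins and Ins/Del (edgeR adjusted p = 0.00069 and 5e-05). *Itga8*, the receptor subunit for nephronectin, had means of 79.4, 42.9 and 54.1 (edgeR adjusted p = 3.3e-05 and 0.0029). The Ins/Del call of *Itga8* was lost without control library 1 (edgeR adjusted p = 0.0161), without Ins/Del library 1 (0.0138) and without Ins/Del library 2 (0.0227). *Itga9*, a subunit that binds tenascin-C and VCAM-1, had normalized counts of 481, 434 and 450.4 in control, 403, 388 and 392 in Ins/Ins, and 409.9, 401 and 386 in Ins/Del. It was called in Ins/Ins (log2 -0.21 ± 0.067, edgeR adjusted p = 0.0063) and just missed the limit in Ins/Del (log2 -0.19 ± 0.067, edgeR adjusted p = 0.0108), and the Ins/Ins call was lost without control library 1 (0.0616) or 3 (0.014) or without Ins/Ins library 1 (0.0152), 2 (0.0219) or 3 (0.0205). *Itgb6*, an epithelial partner of alphav, held 1 to 8 reads per library and was not tested.

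*Itgb8*, the beta subunit with which alphav activates latent TGF-beta, was at or near the limit of detection in the mutants. It held 36, 27 and 22 reads in control, 0, 0 and 1 in Ins/Ins, and 2, 0 and 3 in Ins/Del. The ratio of control to mutant reads was 83.7 for Ins/Ins (exact 95% interval 14.6 to 3344) and 16.5 for Ins/Del (6.78 to 52), intervals that cover counting error only. Both decreases were called (edgeR adjusted p = 5.1e-10 and 9.3e-09). Neural progenitors also express *Itgb8*, and the summed normalized counts of 6 of their markers were 3008 to 3062 in control, 1328 to 1456 in Ins/Ins and 1643 to 1712 in Ins/Del. Of the 4 tested, 1 rose and 2 fell in each mutant, *Neurog2* was at 3 reads or fewer in every library, and the part of such cells in the decrease was not tested.

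The collagen-binding subunits were low, and they did not share a direction. *Itga1* had normalized counts of 61.6, 69.1 and 68.2 in control, 10.3, 18.1 and 13.7 in Ins/Ins, and 8.18, 5.41 and 8.1 in Ins/Del, so that it fell 4.73-fold (edgeR adjusted p = 1.5e-10) and 9.17-fold (edgeR adjusted p = 6.1e-13). *Itga11* held 35, 25 and 14 reads in control, 2, 1 and 1 in Ins/Ins and 3, 1 and 3 in Ins/Del, with control to mutant ratios of 18.2 (6.82 to 68.6) and 10.2 (4.73 to 26.3) (edgeR adjusted p = 1.9e-08 and 1.3e-07). *Itga10* rose, from 13.7, 17.8 and 14.1 normalized counts in control to 40.2, 40.6 and 33.8 in Ins/Ins and 33.7, 26.2 and 37 in Ins/Del (edgeR adjusted p = 2.7e-05 and 0.00064). The strand setting of the counting is not given in the sources used here, and *Itga10* shares 33.5% of its exon bases with *Gm42957* on the same strand, so its counts are uncertain. *Itga2*, which lies 20995 bases from *Itga1* on the same strand of chromosome 13, held 0 to 4 reads per library and was not tested.

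*Itga1*, *Itga11* and *Lama4* are also expressed by fibroblasts, and the summed normalized counts of 9 fibroblast markers were 623 to 732 in control, 279 to 301 in Ins/Ins and 355 to 389 in Ins/Del. Of the 5 markers tested, 4 fell and 1 (*Thy1*, which neurons and T cells also express) rose in each mutant. *Lum* and *Fap* were at 3 reads or fewer in every library. The part of such cells in these decreases was not tested.

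*Itgb7*, the subunit of the gut-homing receptor α4β7 and of αEβ7, rose more than any other member with over 100 normalized counts in control. It had normalized counts of 133, 146 and 154 in control, 624, 607 and 566 in Ins/Ins, and 698, 657 and 669 in Ins/Del. The lines did not overlap, and *Itgb7* was 4.16-fold higher in Ins/Ins (log2 2.07 ± 0.078, edgeR adjusted p = 3.8e-24) and 4.69-fold higher in Ins/Del (log2 2.23 ± 0.077, edgeR adjusted p = 1.4e-25). Its share of the summed beta subunit level was 2.28% ± 0.24 in control, 16.6% ± 0.56 in Ins/Ins and 17.6% ± 0.96 in Ins/Del, against 85.5% ± 1.01, 67.8% ± 0.5 and 66.9% ± 1.22 for *Itgb1*. Its alpha partners were far lower per kilobase of exon. The level of *Itgb7* was 2.85 in control, 11.9 in Ins/Ins and 13.4 in Ins/Del, that of *Itga4* was 0.056, 0.037 and 0.075, and that of *Itgae* was 0.173, 0.164 and 0.213 RPKM. Neither *Itga4* nor *Itgae* passed the test in a mutant.

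*Itgal*, the alpha subunit of the leukocyte receptor LFA-1, had normalized counts of 71, 68.1 and 73.6 in control, 165, 146 and 158 in Ins/Ins, and 229, 196 and 191 in Ins/Del. It was 2.2-fold higher in Ins/Ins (edgeR adjusted p = 2.6e-10) and 2.9-fold higher in Ins/Del (edgeR adjusted p = 2.4e-14). Its beta partner *Itgb2* had means of 5.22, 13.3 and 9.67, and its adjusted p was 0.0171 in Ins/Ins and 0.119 in Ins/Del in edgeR. *Itgam*, *Itgax* and *Itgad*, the other alpha subunits of the cluster on chromosome 7 that *Itgal* belongs to, stayed low. *Itgam* had means of 17.1, 22.2 and 25.7, did not pass the test and shares 68.7% of its exon bases with *Gm49368*. *Itgax* held 0 reads in every library, and *Itgad* held 0 in control and 1 to 3 in the mutants. The platelet subunit *Itga2b* had means of 12.1, 16.1 and 18.5 and did not pass the test.

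The summed normalized counts of 9 leukocyte and platelet markers were 200.3 to 215 in control, 291 to 332 in Ins/Ins and 341 to 404 in Ins/Del. Of these, only *Cd68* and *Cd3e* held enough reads for the test, and both rose in each mutant. At 3 reads or fewer in every library of a line were 4 of the 9 in control, 7 in Ins/Ins and 4 in Ins/Del. *Lyz2* and *Adgre1* were among them in all lines, and *Ptprc*, which marks all leukocytes, and *Csf1r* in both mutants but not in control. The part of such cells in the increase of *Itgb7* and *Itgal* was not tested.

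**Figure D5:**
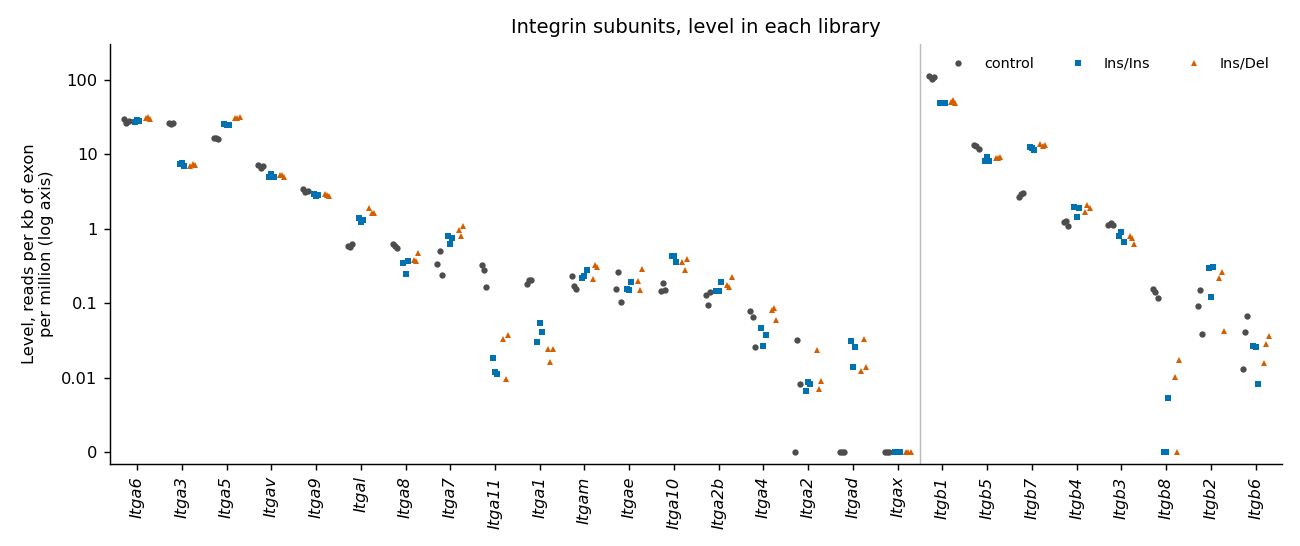
Level of each integrin subunit in each library, in RPKM on a log axis, with alpha subunits to the left of the line and beta subunits to the right. Each point is a library, and libraries with 0 reads are drawn at the tick labelled 0. The *Itga3* points of the mutants lie below control, those of *Itga5* and *Itgb7* lie above it, and *Itga6* overlaps between control and Ins/Ins.

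The chains were then paired as receptors and ligands. A complex cannot outnumber its least expressed chain, so the lowest chain per kilobase was taken for laminin trimers and integrin pairs, as a description of RNA and not of protein. With all exons as the length, the lowest chain of laminin-511 was *Lamb1* in every line. Its level was 25.1 ± 0.24 in control, 12.4 ± 0.07 in Ins/Ins and 12.6 ± 0.42 in Ins/Del. For laminin-111 the lowest chain was *Lama1* in every line, at 7.92 ± 0.31, 8.41 ± 0.35 and 11.4 ± 0.12. The lowest chain of laminin-511 was thus lower in both mutants than in control, while that of laminin-111 was highest in Ins/Del. Both trimers contain *Lamb1* and *Lamc1*, so each value is an upper limit for that trimer taken alone. With the longest transcript as the length, *Lama5* had the lowest mean level of the laminin-511 chains in control. The log2 difference of the lowest chain in Ins/Ins was then -0.987. For laminin-521 the lowest chain was *Lamb2*, at 5.61, 4.47 and 4.25. For laminin-411 it was *Lama4*, at 0.31, 0.09 and 0.09.

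Among the receptors, the lowest chain of α3β1 was *Itga3*, at 25.7 ± 0.55 in control, 7.25 ± 0.41 in Ins/Ins and 7.19 ± 0.25 in Ins/Del. That of α6β1 was *Itga6*, at 27.8 ± 1.4, 27.8 ± 0.84 and 30.5 ± 0.62. That of the fibronectin receptor α5β1 was *Itga5*, at 16.2 ± 0.47, 24.8 ± 0.4 and 30.8 ± 0.17. So the lowest chain of α3β1 fell, that of α5β1 rose, and that of α6β1 was near its control level. With the longest transcript as the length, *Itgb1* became the lowest chain of α6β1 in the mutants, and its log2 difference from control turned to -0.17 in Ins/Ins and -0.10 in Ins/Del. For α6β4 the lowest chain was *Itgb4*, at 1.18, 1.75 and 1.88, and for αvβ5 it was *Itgav*, at 6.86, 5.04 and 5.10.

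The ratio of the summed alpha subunits to *Itgb1* was higher in the mutants than in control. The summed level of the 12 alpha subunits that can pair with β1 was 0.762 ± 0.024 times that of *Itgb1* in control, 1.43 ± 0.013 times in Ins/Ins and 1.55 ± 0.076 times in Ins/Del (SD, n = 3). With the longest transcript of each gene as its length, the ratios were 1.07 ± 0.028, 2.08 ± 0.031 and 2.22 ± 0.1. The size of the ratio depends on the length, and under both lengths it was higher in each mutant than in control by many times its SD.

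The members of the 2 mutants were also compared with each other. In Ins/Del, 8 members were higher than in Ins/Ins and 0 were lower by edgeR at an adjusted p of at most 0.01, against 6.17% and 4.64% of all genes tested and 10.8% in either direction. At an unadjusted p under 0.05, 1 member (*Itga1*) was lower, and DESeq2 called 0 lower. Among the 8 higher members were *Lama1*, *Lama3*, *Lama5*, *Lamc1*, *Itga5*, *Itga6* and *Itgal*. None of these differed by over 2-fold, and their log2 differences were 0.13 to 0.44. Those of 3 members depended on single libraries. The difference of *Itga6* was not called without Ins/Ins library 1 (edgeR adjusted p = 0.043), Ins/Del library 1 (0.0199) or Ins/Del library 2 (0.0314). That of *Lama5* was not called without Ins/Ins library 2 (0.0112) or Ins/Del library 1 (0.0163). That of *Itgal* was not called without Ins/Ins library 1 (0.0101), 2 (0.0332) or 3 (0.0174) or without Ins/Del library 1 (0.0647) or 2 (0.0115). Without Ins/Del library 1 the count was 5.

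The other parts of the basement membrane moved in both directions. Of 12 partner genes tested, 4 rose and 7 fell in Ins/Ins, and 5 rose and 6 fell in Ins/Del. Of all genes tested, 29% rose and 29.4% fell in Ins/Ins, and 30.6% rose and 31.9% fell in Ins/Del. The 12 had a median log2 fold change of -0.39 and -0.15 against 0.00 and -0.01 for all genes tested. *Nid1*, nidogen-1, which binds the laminin gamma1 chain and links it to collagen IV, rose 2.54-fold and 3.06-fold, from 2602, 2469 and 2409 normalized counts in control to 6154, 6294 and 6574 in Ins/Ins and 7640.4, 7660.5 and 7609 in Ins/Del (edgeR adjusted p = 2.6e-30 and 4.8e-33). *Col4a5*, a collagen IV chain, had means of 86.3, 4.56 and 11.3 (edgeR adjusted p = 1.6e-15 and 2.4e-13). *Egfl6*, a secreted basement membrane protein that binds integrins, had means of 13.5, 39.6 and 89.7 (edgeR adjusted p = 2.5e-06 and 1.1e-13). *Col15a1* rose, from 5 reads over the control libraries to 33 in Ins/Ins and 36 in Ins/Del, and *Col4a6* fell, from 44 to 5 and 5. The minor collagen IV chains *Col4a3* and *Col4a4* held 0 to 6 reads per library and were not tested. *Col4a1*, a main collagen IV chain, had means of 1139, 919 and 1415, lower than control in Ins/Ins and higher in Ins/Del (edgeR adjusted p = 1.7e-06 and 5.8e-07). *Col4a2*, another main chain, had means of 718, 427 and 565, lower than control in both mutants (edgeR adjusted p = 5.3e-13 and 7.4e-06). So nidogen-1 moved in the direction of its laminin partner *Lamc1*, and both minor collagen IV chains that were tested fell. In both mutants 4 partners were called higher and 6 lower, against 25.6% and 26.7% of all genes tested. *Hspg2*, *Agrn* and *Sparc* were among the 6 lower.

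The list of laminin receptors other than integrins also held sarcoglycans, which belong to the dystroglycan complex. Of its 9 genes tested, 2 rose and 6 fell in Ins/Ins, and 3 rose and 4 fell in Ins/Del (median log2 -0.25 and -0.16). This was 88.9% and 77.8% called, against 58.4% and 62.5% of all genes tested. *Sdc4*, the heparan sulfate proteoglycan syndecan-4, which acts with α5β1 on fibronectin, rose 3-fold and 2.52-fold, from a mean of 784 to 2351 and 1976 normalized counts (edgeR adjusted p = 7.3e-29 and 2.8e-26). *Sdc2* fell from a mean of 146 to 69.9 and 64.3 (edgeR adjusted p = 1.2e-08 and 1.3e-09). *Bcam* fell from a mean of 4691 to 2936 and 3171 (edgeR adjusted p = 5.6e-20 and 1.1e-17). *Dag1*, dystroglycan, had means of 6352, 5961 and 6804. It was called lower in Ins/Ins and higher in Ins/Del (edgeR adjusted p = 0.0052 and 0.0024). The sarcoglycans *Sgcd* and *Sgce*, of the dystroglycan complex, moved apart: *Sgcd* had means of 29.1, 72.6 and 109.8 and *Sgce* had 132, 55.6 and 49.6, and both passed the test in both mutants.

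Of the 11 integrin ligands tested other than laminins and the basement membrane genes, 7 rose and 4 fell in Ins/Ins, and 6 rose and 3 fell in Ins/Del (median log2 0.41 and 0.62). All 11 were called in Ins/Ins and 81.8% in Ins/Del, against 58.4% and 62.5% of all genes tested, of which 29% and 30.6% rose. *Fn1*, fibronectin, the ligand of α5β1, had means of 27248, 30236 and 27139 normalized counts. It rose by a log2 of 0.15 in Ins/Ins (edgeR adjusted p = 5.5e-06) and did not pass the test in Ins/Del (edgeR adjusted p = 0.864), so the ligand was called in one mutant and *Itga5* in both. *Vwf*, von Willebrand factor of endothelium and platelets, had means of 181, 467 and 419 (edgeR adjusted p = 2.8e-17 and 1.8e-15). The summed normalized counts of 5 endothelial markers were 372 to 420.1 in control, 851 to 869.9 in Ins/Ins and 944 to 997 in Ins/Del, of which *Emcn* was at 3 reads or fewer in every library, and of the 4 tested 1 rose and 1 fell in Ins/Ins and 2 rose and 1 fell in Ins/Del. The part of such cells in the increase of *Vwf* was not tested. *Tnc*, tenascin-C, held 214 reads over the control libraries and 8 and 7 over the mutant ones. *Madcam1*, the ligand of α4β7, had means of 28.7, 4.33 and 9.33 (edgeR adjusted p = 1.8e-06 and 0.00025), opposite in direction to *Itgb7*. *Npnt*, nephronectin, had means of 257, 130 and 161 (edgeR adjusted p = 1.5e-09 and 1.5e-06), in the same direction as its receptor subunit *Itga8*.

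Of 37 genes of the integrin adhesion plaque tested, which link beta subunits to actin, 10 rose and 19 fell in Ins/Ins, and 13 rose and 17 fell in Ins/Del (median log2 -0.29 and -0.26). Called were 78.4% and 81.1% of the list and 58.4% and 62.5% of all genes tested, of which 29.4% and 31.9% fell. Changes over 2-fold in both mutants were found for 2 that rose and 6 that fell, against 6.58% and 8.1% of all genes tested. *Ilk*, integrin-linked kinase by name, binds the β1 tail with parvin and PINCH. It fell 2.15-fold and 2.14-fold (edgeR adjusted p = 3.4e-21 and 3.7e-21). Its normalized counts were 1299, 1314 and 1281 in control, 598, 595 and 617 in Ins/Ins, and 608, 643 and 566 in Ins/Del. The parvin *Parva*, a partner of *Ilk*, fell 2.89-fold and 4.56-fold. Another parvin, *Parvb*, had more counts than *Parva* in control and rose. Its means were 1232, 2112 and 2055 (edgeR adjusted p = 1.2e-19 and 6.2e-19). The kindlin *Fermt1*, which activates integrins, fell 3.1-fold and 4.02-fold. *Zyx*, zyxin of mature adhesions, fell 3.61-fold and 4.44-fold, and the filamin *Flnc* 6.37-fold and 5.51-fold. The 2 that rose over 2-fold in both mutants were *Parvg* and *Fermt3*, a parvin and a kindlin best known from blood cells. *Parvg* had means of 16.6, 76.8 and 66.6 and *Fermt3* had 15.6, 31.4 and 50.3. The talin *Tln1*, at a mean of 5060.4 in control, decreased by a log2 of -0.31 and -0.26 (edgeR adjusted p = 1.2e-11 and 8.5e-10). Another talin, *Tln2*, rose from a mean of 1594 to 2393 and 2575 (edgeR adjusted p = 6.6e-17 and 2.3e-19). The decrease of *Ilk* was thus of about the size of that of *Itgb1*, and that of *Tln1* was smaller.

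Of 11 integrin-associated tetraspanin and hemidesmosome genes, 3 rose and 4 fell in each mutant (median log2 -0.02 and -0.05). This was 63.6% called, near the 58.4% and 62.5% of all genes tested. *Cd9* rose from a mean of 2652 to 3805 and 3853, and *Cd151*, the tetraspanin that binds α3β1 and α6β1, fell from 804 to 603 and 658 (edgeR adjusted p = 1.1e-07 and 4.2e-05).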

How the data were processed

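RNA-seq was performed on 9 libraries, 3 each from the E14 control, Ins/Ins and Ins/Del lines. The deposited values are whole-number counts of reads per gene symbol, which the authors made by alignment with STAR (2.7.3) to mm10 and counting with HTSeq, per the submitters' processing notes. The annotation, HTSeq version and strand setting are not given in the sources used here. Counts were normalized with TMM factors (0.993 to 1.02) and genes filtered with filterByExpr, and the quasi-likelihood test of edgeR 4.0.16 in R 4.3.3 was fitted to all 9 libraries with line as the only term. Adjusted p is by Benjamini-Hochberg over 14125 genes, with calls at 0.01 as in the study's own DESeq2 test. SE is the standard error of the log2 fold change. Levels are TMM-normalized RPKM over all exons (GENCODE M21, GRCm38). Tables were made with Python 3.11.15 and pandas 2.3.3. Interval bounds are exact, at 95%.

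Values are given in full for members called and changed over 2-fold in either mutant and for the most abundant chain of each class, and for genes of the other lists called and changed over 2-fold in both mutants (at most 6 a list). Further genes of those lists (*Col4a1*, *Col4a2*, *Col4a3*, *Col4a4*, *Hspg2*, *Agrn*, *Sparc*, *Bcam*, *Dag1*, *Fn1*, *Npnt*, *Ilk*, *Parvb*, *Tln1*, *Tln2*, *Cd9*, *Cd151*) were named after their values were seen. The members and lists were chosen with earlier results of these data known. Samples were grouped by genotype label. Replicate numbers were checked for pairing: same-numbered libraries of different lines had correlations of -0.0238 to 0.0601 in their deviations, against -0.0571 to 0.0575 for other numbers, so no block was used. Alternatives were DESeq2 1.42.0, other scaling and filters, 2-group fits, a replicate block, and each library left out. The fits were tested on simulated data. Some results of single members are not reported here.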

Additional observations from a re-analysis of the deposited data

Results flagged for a closer look

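For 7 members the change from control differed between the mutants by the test of Ins/Del against Ins/Ins itself. The log2 differences were 0.44 for *Lama1*, 0.37 for *Lama3*, 0.17 for *Lama5*, 0.28 for *Lamc1*, 0.31 for *Itga5*, 0.13 for *Itga6* and 0.39 for *Itgal*, each higher in Ins/Del in all 3 libraries. *Lama1* and *Itga6* were called against control in Ins/Del and not in Ins/Ins, *Lama5* was lower than control in Ins/Ins alone, and the others rose in Ins/Del by more than in Ins/Ins.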

How the results depend on the processing

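Calls of the 32 members were recomputed under 17 alternatives in 3 comparisons, 1624 values in all, of which 1537 kept their direction and their side of the threshold; genes that a 2-group filter removed have no value there. Of the 61 called values that lost the call, 39 did so under a test of a change over 2-fold, which called 2 members higher and 6 lower in Ins/Ins, 3 and 5 in Ins/Del, and 0 higher in Ins/Del against Ins/Ins. DESeq2 ended the calls of *Itga8* in Ins/Del, *Itga9* in Ins/Ins and *Itgal* between the mutants. Leaving out 1 library gave 8 to 9 members higher and 14 to 15 lower in Ins/Ins, 11 in each case and 12 to 14 in Ins/Del, and 5 to 8 higher between the mutants. The cause of these differences was not tested.

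Values that changed sign were not called in either direction: *Itga6* in Ins/Ins was 0.0046 with all genes of at least 1 read, and -0.029 to 0.037 with 1 library left out. With 1 library left out, *Itgae* ranged from -0.31 to 0.33 in Ins/Ins and -0.0027 to 0.67 in Ins/Del, and between the mutants *Itga3* ranged from -0.0503 to 0.0257, *Itga9* from -0.0029 to 0.037, *Itgav* from -0.0022 to 0.058, *Itgb4* from -0.016 to 0.18 and *Lama4* from -0.14 to 0.11.

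The replicate block, run although the numbers pair no libraries, called 8 higher and 15 lower in Ins/Ins, 11 and 13 in Ins/Del, and 8 and 0 between the mutants, and changed no call of a member. With the longest transcript as the length, the *Lama5* share was 81.7% in control and 77.3% in Ins/Ins, the *Lama1* share was 18.2% in Ins/Ins, the log2 difference of the lowest chain of laminin-511 was -0.987 in Ins/Ins, and that of α6β1 was -0.167 in Ins/Ins and -0.102 in Ins/Del, where *Itgb1* became the lowest chain. Levels per kilobase therefore order genes less firmly than lines. With the spread set by 3 libraries a line, members with few reads (*Itga2b*, *Itga4*, *Itgae*, *Itgam*, *Itgb2*, *Lama2*) are weakly resolved, and for *Itgb2* and *Lama2* leaving out a library brought a call.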
